A study of Mus musculus with 2 samples.

Results

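Insulin and amylin are the hormones by which beta cells are known, and the signals of their genes were compared here between 2 islet graft samples. The members looked for were the insulin genes Ins1 and Ins2 and the amylin gene Iapp, and a probe set was taken when the platform annotation gave it exactly 1 gene symbol and that symbol was 1 of these 3. Of 45037 probe sets other than controls, 5 were found, 1 for Ins2 and 4 for Iapp, so that 2 of the 3 genes had a value. For Ins1, 0 probe sets were found. The annotation used here does not list 9160 probe sets, and these are unnamed here rather than without a gene, so no value is given for Ins1.

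On the day of isolation, 50 islets of wild type (WT) C57BL/6 donors had been put under the left kidney capsule of each recipient. The recipient type of 1 sample was the normoglycemic WT C57BL/6 male, and that of the other the hyperglycemic male heterozygous for the Akita mutation, a missense mutation of Ins2. The labels name the mouse in the singular, but whether grafts were pooled is not stated, and "the WT recipient" and "the Akita recipient" below stand for the 2 samples. Each graft sample was taken at 6 hours and measured on 1 MOE430 2.0 array, and neither recipient type is described as treated with insulin in the labels. In Akita mice the mutated proinsulin misfolds and the beta cells of the animal's own pancreas fail, but the transplanted islets came from WT donors in both samples. The signals do not distinguish the normal from the mutated Ins2 allele. Blood glucose and genotype of the recipient changed together between the 2 samples, and their effects cannot be told apart.

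Insulin is made in beta cells as preproinsulin, folded in the endoplasmic reticulum, cut by prohormone convertases and stored in granules with zinc. Mice carry a pair of insulin genes, Ins2, the ancestral one, and Ins1, a copy of it. Iapp encodes islet amyloid polypeptide, or amylin, a peptide of the calcitonin family that is stored in the same granules and released together with insulin. Glucose is known to act on the transcription of both hormones and on the stability of insulin mRNA.

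The promoter windows of Ins1 and Iapp, the members with an entry among the RefSeq promoters of GRCm38.p6, are shown because both genes are known to be read by the same beta cell transcription factors. Each window holds the 250 bases before the annotated start, 5′ to 3′, on the plus strand. Ins1 lies at chr19:52264047-52264296 and Iapp at chr6:142298175-142298424. Capitals mark CATCTG, the core of the insulin E box bound by Neurod1 dimers, and TAAT, the core of the A boxes bound by Pdx1, each on either strand.
Ins1: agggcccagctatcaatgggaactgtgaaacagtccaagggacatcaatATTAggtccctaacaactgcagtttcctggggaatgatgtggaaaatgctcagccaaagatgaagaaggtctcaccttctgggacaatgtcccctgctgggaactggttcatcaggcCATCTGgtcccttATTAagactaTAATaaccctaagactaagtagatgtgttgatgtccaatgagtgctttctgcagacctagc
Iapp: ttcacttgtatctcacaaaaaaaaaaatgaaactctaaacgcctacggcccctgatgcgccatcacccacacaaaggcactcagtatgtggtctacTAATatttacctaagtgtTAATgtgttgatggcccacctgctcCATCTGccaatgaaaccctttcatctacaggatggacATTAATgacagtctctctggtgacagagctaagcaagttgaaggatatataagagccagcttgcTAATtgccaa
Both windows held 1 match to CATCTG, from base -84 to -79 in Ins1 and from -111 to -106 in Iapp. TAAT was found 3 times in Ins1 and 5 times in Iapp, where 1 match on each strand overlap in the stretch that reads ATTAAT. Among 32851 promoter windows of the same length, 14.4% held CATCTG and 54.9% held TAAT, so the second match in particular is common. These matches are a description of the letters in the windows and not of binding in the grafts.

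Ins2 gave a high signal in both grafts, and it was somewhat higher in the Akita recipient's graft. Its probe set, 1422446_x_at, had a signal of 68738 in the WT recipient's graft and 88302 in the Akita recipient's graft, a ratio of 1.28 (log2 ratio 0.36). The suffix _x_at marks probe sets in which some probes can also bind other transcripts. Because Ins1 is a close copy of Ins2, how much of this signal came from Ins1 mRNA is uncertain. On the array of the WT recipient 12 probe sets were brighter, and on the other array 13 were.

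Iapp was higher in the Akita recipient's graft on each of its 4 probe sets. Probe set 1437323_a_at had signals of 47116 in the WT recipient's graft and 74018 in the Akita recipient's graft (1.57-fold). Probe set 1423509_a_at had signals of 45610 and 71524 (1.57-fold), and 1423510_at had 35705 and 56139 (1.57-fold). The fourth, 1456004_x_at, was much dimmer at 1606 and 2386, and its ratio was 1.49. The log2 ratios of the 4 probe sets thus ranged from 0.57 to 0.65. The ratio of the dim probe set was close to those of the bright ones, but as an _x_at probe set it can also bind other transcripts. These probe sets read the same RNA on the same arrays, so their closeness describes the measurement and is no replicate of the condition.

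**Figure D1:**
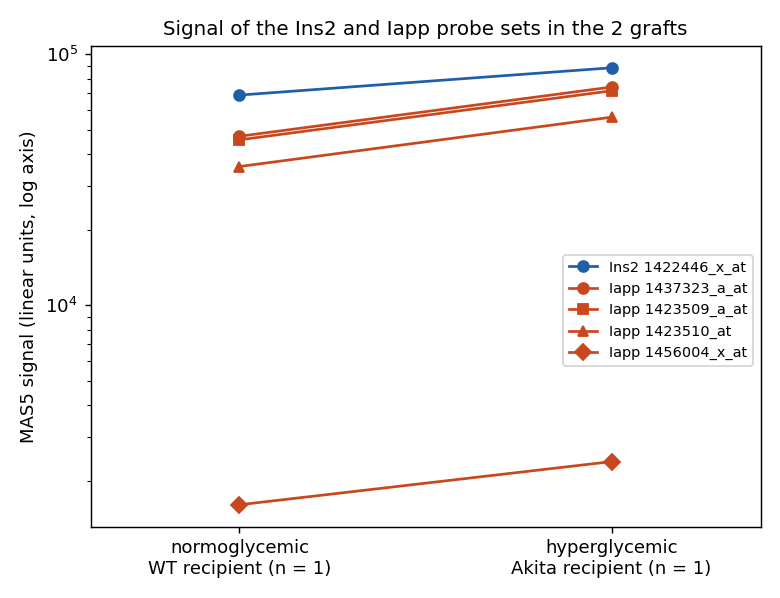
MAS5 signal (y axis, log scale) of the Ins2 probe set and the 4 Iapp probe sets in the grafts of the normoglycemic WT and the hyperglycemic Akita recipient (x axis, 1 array each); a line joins the 2 values of a probe set. All 5 lines rise, Ins2 from 68738 to 88302 and the dimmest Iapp probe set from 1606 to 2386.

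No difference between the conditions could be tested with 1 array per condition, and no error between mice can be given. A technical scatter within the arrays was obtained from genes with several probe sets, taken in pairs, the members left out. Where the dimmer of a pair had a mean signal of 16384 or more, 1 SD of a log2 ratio was 0.18 (117 pairs), and at 1024 to 4096 it was 0.24 (1595 pairs). This scatter does not include differences between grafts or between hybridizations.

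Of the 5 probe sets of Ins2 and Iapp, 0 were over 2-fold higher in the Akita recipient's graft, against 9.84% of 25080 measured probe sets, those with at least 1 signal at or above the median of its array, and 0 were over 2-fold lower, against 6.73%. Over 1.5-fold, 3 of the 5 were higher, against 17.5%. All 3 were of Iapp and read the same RNA, so they count as 1 gene, and 13.7% of measured genes were over 1.5-fold higher. After loess correction or quantile normalization only 1 of the 5 was, the dim Iapp probe set, and centred on the islet endocrine genes 0 were. Bright probe sets scattered less. Of 436 probe sets with both signals at 16384 or more, 5.5% were over 1.5-fold higher and 66.3% were higher at all, with a median log2 ratio of 0.14. Within these, 81.2% had a lower ratio than Ins2, and 96.1% to 96.6% had a lower ratio than the 3 bright Iapp probe sets. Ins2 therefore lay within the range from the 5th to the 95th percentile of the bright probe sets, -0.31 to 0.59 on the log2 scale, and the bright Iapp probe sets lay just above it.

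**Figure D2:**
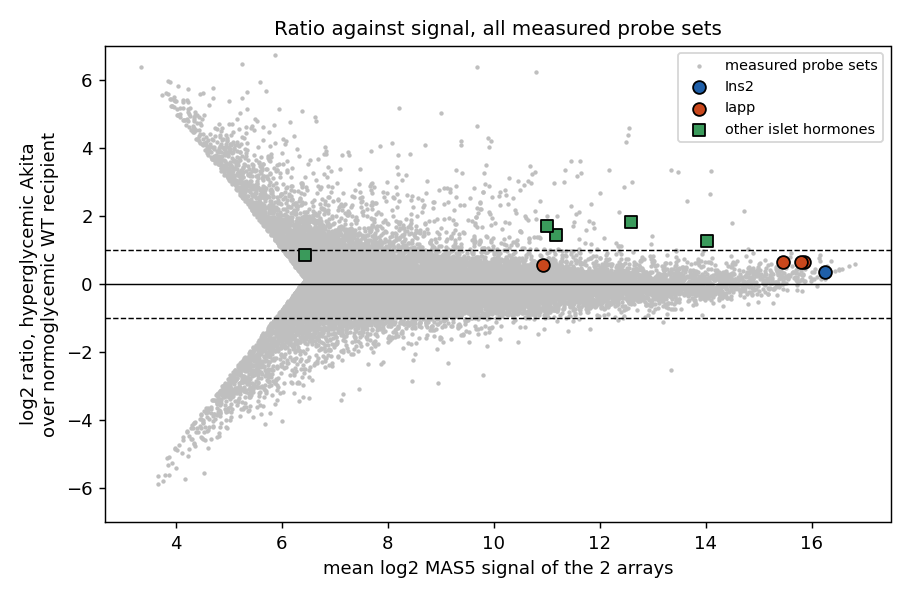
Log2 ratio of the Akita over the WT recipient's signal (y axis) against the mean log2 signal of the 2 arrays (x axis), 1 gray point per measured probe set, with dashed lines at 2-fold. Ins2 (0.36) and the Iapp probe sets (0.57 to 0.65) lie between 0 and the upper dashed line, and 4 of the 5 other islet hormones lie above that line.

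The direction for Ins2 depended on how the arrays were scaled. With the values as deposited its log2 ratio was 0.36, after loess correction 0.23, and after quantile normalization -0.026. Relative to the median of 31 measured islet endocrine genes it was 0.061. These 31 were not limited to beta cells: they included the hormones of other islet cells, and Slc2a2, which proximal tubules also express. Iapp was higher under each of the 6 scalings tried, with log2 ratios from 0.27 to 0.67 over its probe sets. None of the 6 used the hybridization controls of the arrays, which are given below. The log2 ratio of Iapp (1437323_a_at) exceeded that of Ins2 by 0.29, which is 1.22-fold, and for a difference of 2 such ratios 1 SD of the technical scatter was 0.26. The gap between Iapp and Ins2 was thus about the size of this scatter.

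**Figure D3:**
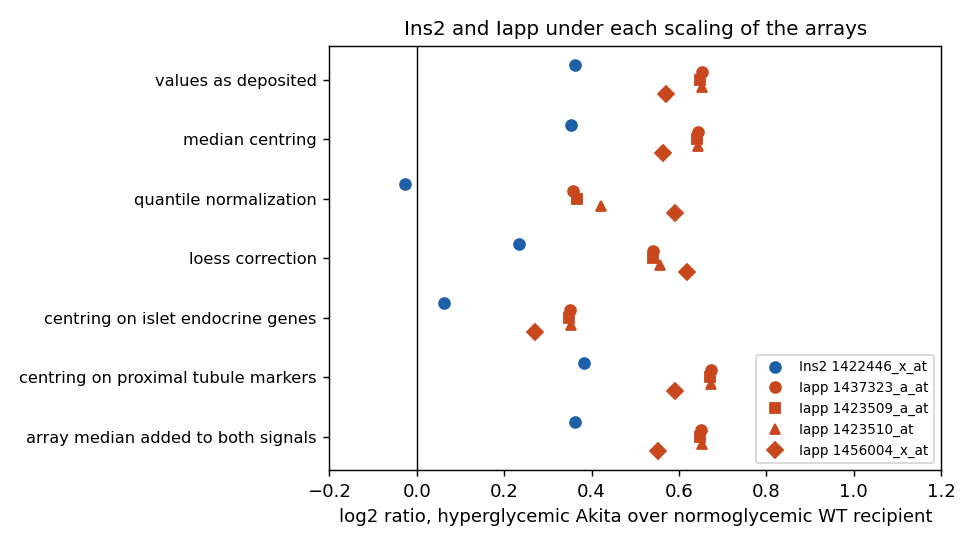
Log2 ratio of Ins2 and of each Iapp probe set (x axis) with the values as deposited and under 6 other scalings (y axis), 1 array per condition. Ins2 moves from 0.36 as deposited to -0.026 after quantile normalization, and every Iapp point stays to the right of 0.

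Gcg, Sst, Ppy and Pyy, hormones of other islet endocrine cells, had larger ratios than Ins2 and Iapp. Gcg, the glucagon gene of alpha cells, had a signal of 10784 in the WT recipient's graft and 26023 in the Akita recipient's graft (2.41-fold). Sst, the somatostatin gene of delta cells, had 1408 and 3806 (2.70-fold). Ppy, which encodes pancreatic polypeptide, had 3295 and 11580 (3.51-fold), and Pyy, which encodes peptide YY, 1143 and 3736 (3.27-fold). Ghrl, the ghrelin gene, reached the array median only in the Akita recipient and was at least 1.42-fold higher with both signals raised to the medians, a bound below the ratio of Iapp. In this list of 5, the median log2 ratio was 1.43 and 4 were over 2-fold higher, against 7.56% of 12538 measured genes.

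Set against Ins2 within the arrays, Gcg was 1.88-fold further up, Sst 2.10-fold, Pyy 2.54-fold and Ppy 2.74-fold. On the log2 scale these gaps were 0.91, 1.07, 1.35 and 1.45, where 1 SD of the technical scatter of such a difference was 0.26 to 0.30. Against Iapp they were 0.62, 0.78, 1.06 and 1.16. Each of these 8 gaps was larger than 2 such SDs. The ratio of insulin signal to the signal of each of these 4 hormones was thus lower in the Akita recipient's sample. Whether this reflects cell numbers or RNA per cell cannot be told apart in bulk RNA, and it was not tested with 1 array per condition. Ins2 lay near the top of the signal range, with 12 (WT) and 13 (Akita) probe sets brighter. The signals of these 4 hormones were lower, from 1143 to 26023. The Iapp probe set compared was also bright, at 47116 and 74018, but the dim one, at 1606 and 2386, had a ratio of 1.49. Whether very bright signals understate a ratio, and so widen these gaps, was not tested.

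Of the genes that turn the precursors into the stored hormones, 4 were higher and 2 lower. Of 7 genes for the processing of proinsulin and proIAPP, 6 had a probe set and were measured. Their median log2 ratio was 0.69 (median of all measured genes, -0.06). Cpe, the carboxypeptidase that trims both peptides, had signals of 3752 and 7345 (1.96-fold) on its brighter probe set. Its dimmer one, with 127 and 63.2, went the other way and reached the array median only in the WT recipient. Pcsk1, a prohormone convertase, had 194 and 376 (1.93-fold), and Slc30a8, the zinc transporter of insulin granules, 316 and 655 (2.07-fold). Slc30a8 was the 1 gene of the 6 over 2-fold higher, against 7.56% of all measured genes. Scg5, the chaperone of convertase Pcsk2, had 1764 and 2380 (1.35-fold). Pam, which amidates amylin, was lower, with 2112 in the WT recipient's graft and 1212 in the other (1.74-fold).

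The transcription factors of the insulin gene did not move in 1 direction. Of 12, 8 had a probe set and were measured, 5 were higher and 3 lower, 0 were past 2-fold in either direction (13.1% of all measured genes were), and the median log2 ratio was 0.11. Neurod1, which binds the E box, had signals of 1392 in the WT recipient's graft and 1606 in the Akita recipient's graft (1.15-fold), and its other probe set gave 1.36-fold. Pax6, an activator of several islet hormone genes, had 420 and 663 (1.58-fold). Nkx6-1, a factor of beta cells, had 658 and 481 (1.37-fold lower), and Nkx2-2, also needed for beta cell identity, 155 and 103 (1.51-fold lower). Pdx1, which binds the A boxes, had 181 and 136 (1.33-fold lower) on its brighter probe set. Its other probe set, with 27.5 and 129, pointed up and reached the array median only in the Akita recipient. Isl1 had 365 and 381 (1.04-fold) on the probe set used. Another Isl1 probe set, with 42.7 and 442, pointed far up and reached the array median only in the Akita recipient. With the median ratio over each gene's probe sets, 1 gene of this list, Isl1, was past 2-fold, through this other probe set. The share of all measured genes was not computed in that way.

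Of 8 genes of glucose sensing and incretin receptors, 5 were measured and 0 were past 2-fold, against 13.1% of all measured genes. Their median log2 ratio was -0.01. G6pc2, a glucose-6-phosphatase subunit of beta cells, had signals of 2323 and 3786 (1.63-fold higher in the Akita recipient's graft), close to Iapp. Kcnj11, the pore of the ATP-sensitive potassium channel, had 469 and 513 (1.09-fold). Ucn3, a peptide of mature beta cells, had 194 and 150 (1.29-fold lower). Slc2a2, the glucose transporter of beta cells, which proximal tubules also express, had 19283 and 16912 (1.14-fold lower).

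Of 7 granule cargo genes, all measured, 2 were over 2-fold higher, against 7.56% of all measured genes. In 1 of the 2 each signal reached its array median. In the list 4 genes were higher and 3 lower, and the median log2 ratio was 0.30. Scg2, a secretogranin, had signals of 5573 and 8932 (1.60-fold), Scg3 2448 and 3014 (1.23-fold) and Vgf 108 and 225 (2.08-fold), whereas Chga, chromogranin A, had 5117 and 4218 (1.21-fold lower). Ptprn, a membrane protein of the granules, reached the median only in the Akita recipient, with 107 against 9.82, and was at least 1.29-fold higher.

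Over the 5 islet lists together, 31 genes were measured, 20 were higher and 11 lower. Their median log2 ratio was 0.30 (median of all measured genes, -0.06). Past 2-fold, 7 of the 31 were higher, 6 of them above the median on each array, and 0 were lower, against 7.56% and 5.54% of all measured genes. The ratio of Ins2 was above that of 16 of the 31 and below that of 15, and the ratio of each Iapp probe set was above that of 18 and below that of 13. Ins2 and Iapp thus lay near the middle of the islet endocrine genes on these arrays. At the 1.5-fold limit, 13 of the 31 were higher and 2 lower, against 13.7% and 14.4% of all measured genes.

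**Figure D4:**
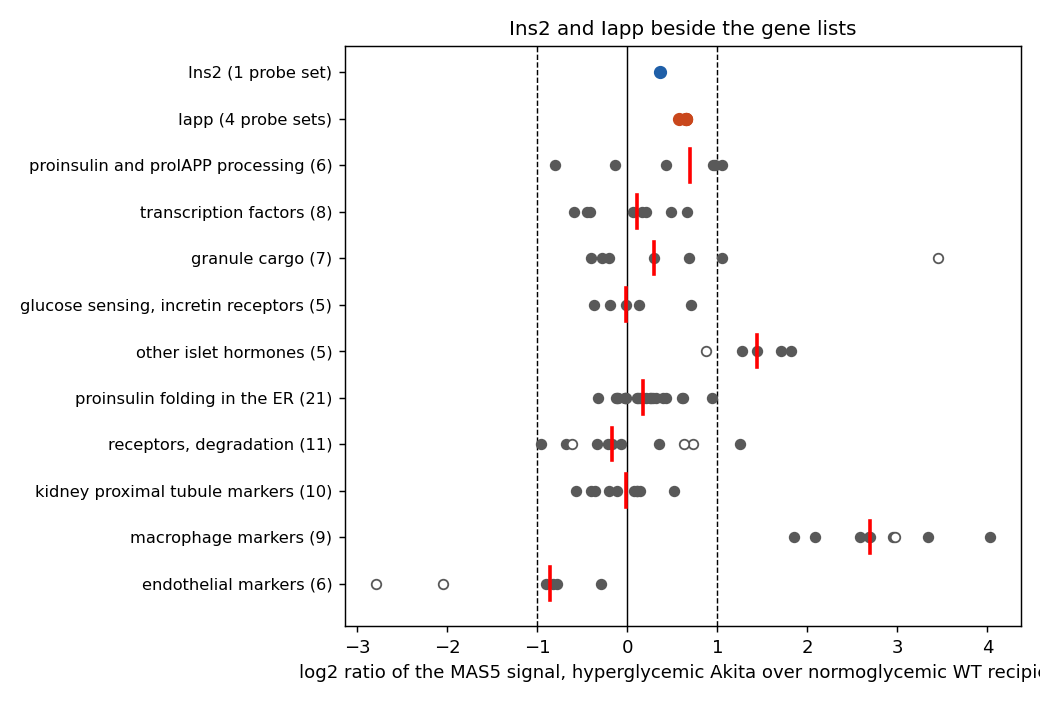
Log2 ratio of the signal, hyperglycemic Akita over normoglycemic WT recipient (x axis), for the probe sets of Ins2 and Iapp and for the measured genes of 10 lists (y axis, number of genes in parentheses). Filled gray points reach the array median in both samples and open points in only 1, red bars are list medians and dashed lines mark 2-fold; the median of the other islet hormones (1.43) lies to the right of Ins2 (0.36) and Iapp (0.57 to 0.65).

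Proinsulin is folded by chaperones and disulfide isomerases of the endoplasmic reticulum, which many other cells of the sample also express. Of 21 such genes, all measured, 14 were higher, 7 lower and 0 past 2-fold, against 13.1% of all measured genes. Their median log2 ratio was 0.18 (median of all measured genes, -0.06). Hspa5, the chaperone BiP, had signals of 14091 in the WT recipient's graft and 21594 in the Akita recipient's graft (1.53-fold), and its other probe sets gave 1.45-fold and 1.21-fold. Sdf2l1, a partner of BiP, had 676 and 1297 (1.92-fold). P4hb, a protein disulfide isomerase, had 14188 and 12976 (1.09-fold lower). Xbp1, a transcription factor of the unfolded protein response, had 20141 and 23264 (1.16-fold), with no distinction of its spliced form. Centring on the islet endocrine genes lowers every log2 ratio by 0.30, and the median was then -0.12 for these folding genes and -0.19 for the transcription factors, but 1.13 for the other islet hormones and 0.39 for the processing genes.

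The relatives of insulin and amylin had low signals. Of 7 other peptides of the insulin superfamily, 3 were measured. Insl6 had signals of 249 and 334 (1.34-fold). Igf1, insulin-like growth factor 1, had 127 and 115 (1.10-fold lower) on its brightest probe set. Another Igf1 probe set, with 110 and 40.4, pointed further down and reached the median only in the WT recipient. The remaining Igf1 probe sets were below the medians in both samples and moved in opposite directions. Igf2 reached the median only in the Akita recipient, at least 1.56-fold higher. Its other probe set was below the medians in both. Of 4 other calcitonin family peptides, 3 were measured. Calcb, which encodes a calcitonin gene-related peptide, had 275 in the WT recipient's graft and 129 in the other (2.13-fold lower), Adm, adrenomedullin, 435 and 492 (1.13-fold), and Adm2 reached the median only in the WT recipient, at least 1.22-fold lower.

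Of 11 genes for the receptors and the degradation of insulin and amylin, all were measured, 1 was over 2-fold higher and 0 over 2-fold lower, near the 7.56% and 5.54% of all measured genes, with a median log2 ratio of -0.17. Insr, the insulin receptor, had signals of 1172 and 1112 (1.05-fold lower in the Akita recipient's graft). Igf1r, which also binds insulin at high levels, had 3025 and 2689 (1.13-fold lower) on its brightest probe set. Its other probe sets were higher, by 1.11-fold, 1.02-fold, 1.23-fold and 1.46-fold. Ide, the protease that degrades insulin and amylin, had 2023 and 1605 (1.26-fold lower). Irs2, an adaptor of the insulin receptor, had 140 and 332 (2.37-fold higher). Of the genes of the amylin receptor, Calcr reached the median only in the Akita recipient (116 against 75.0). Ramp3 had 444 and 276 (1.61-fold lower), and Ramp1 reached the median only in the WT recipient (99.5 against 65.2). Ramp2, a partner of the related receptor Calcrl, had 355 and 183 (1.94-fold lower). These genes are expressed in the kidney and in blood vessels as well as in islets.

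Both samples gave high signals for kidney genes, and markers of other cell types moved between them. All 10 proximal tubule markers were measured, 5 were higher and 5 lower (median log2 ratio -0.02). Past 2-fold in either direction were 0, against 13.1% of all measured genes. Kap had signals of 89517 and 128500 and Cyp4b1 64252 and 70618, whereas Miox had 48075 and 32407. Relative to the median of these markers the ratios of Ins2 and Iapp were nearly unchanged, 0.38 and 0.59 to 0.67 on the log2 scale. Single markers ranged from -0.57 (Miox) to 0.52 (Kap), so Kap rose more than Ins2 did (0.36). All 9 macrophage markers were over 2-fold higher (median 6.46-fold), against 7.56% of all measured genes. Their summed signal was 10956 in the WT recipient's sample and 86805 in the other, with Lyz2 at 5539 and 55987 and Cd14 at 1624 and 10468. The 4 endothelial markers with both signals at the medians or above, of 7 listed, were lower (summed signal of the 6 measured, 2791 and 1570), such as Ptprb at 766 and 410 and Cdh5 at 607 and 495. Of 14 pancreatic acinar markers, 11 had a probe set and 4 were measured. Cela1, an elastase, had 18162 and 14625, while Ctrb1, Cpa1 and Cel were below the medians in both samples. Whether the Cela1 signal came from acinar cells was not tested. Cela3b had 124 and 288 on its brightest probe set, but another had 98.7 and 105 (1.07-fold). The remaining Cela3b probe sets, below the medians in both samples, were lower in the Akita recipient's sample. The part of these cell types in the ratios of Ins2 and Iapp was not tested.

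The controls of the arrays also differed. On the Akita recipient's array the 18 hybridization controls gave 1.91-fold more signal in the median, and the ratio of 3′ to 5′ signal, which rises with RNA degradation, was 3.54 and 3.99 on the probe sets of Actb and 1.30 and 1.76 on those of Gapdh, in the samples of the WT and the Akita recipient. The median ratio of the hybridization controls was larger than the ratios of Ins2 (1.28) and of the Iapp probe sets (1.49 to 1.57). The arrays were not scaled to these controls, so the direction of Ins2 and Iapp relative to them was not tested. The part of the controls and of RNA degradation in the ratios of Ins2 and Iapp was not tested either.

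The genes with signals most like those of the members over the 2 samples were found by the distance in log2 signal, for 1 probe set per gene. Nearest to Ins2 were Selenop, a plasma selenoprotein, at 67010 and 83701 (distance 0.09), Uqcrb, a subunit of respiratory complex III, at 69571 and 82252 (0.10) and Gpx3, a glutathione peroxidase that the kidney secretes, at 66119 and 82170 (0.12). Nearest to Iapp (1437323_a_at) were the ribosomal protein gene Rps29 at 51416 and 69810 (distance 0.15), Dnase1 at 47979 and 66050 (0.17) and Akr1c21 at 52462 and 64967 (0.24). With only 2 samples this likeness is one of brightness and ratio, and signals of different probe sets do not rank the amounts of mRNA.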

How the data were processed

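RNA of 2 graft samples was measured on 1 array each. The authors deposited linear signal intensities, which the submitters' processing notes credit to MAS5. Its version and its scaling target were not given in the sources used here. Likewise no settings are given for the Subio Platform, which the study used for its expression analysis. Whether a sample pooled several mice is not stated, and the number of arrays limits the precision. The ratio of the Akita over the WT recipient was taken from the values as they stood. Of 45037 probe sets, 34945 carried 1 symbol, 932 several and 9160 were not listed. List genes were read from their brightest probe set by mean log2 signal, and a gene was measured when at least 1 signal reached its array median (82.9 and 91.5). Where only 1 did, both were raised to the medians and the fold is a bound.

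The members, the 13 gene lists and the named genes were chosen with earlier results of these data known. The text names each probe set of the members, the 3 genes nearest to each, in each islet, peptide or receptor list the 3 brightest measured genes and the 2 with the largest absolute log2 ratio, and in each list of other cell types the 2 brightest. Pcsk1, Pdx1, Isl1, Calcr, Ramp1, Ramp3, Ghrl, Miox, Ctrb1, Cpa1 and Cel were added after their values had been seen. The alternatives were 6 scalings (loess with span 0.3 and 3 iterations), a limit of 1.5-fold, other filters on low signals, and the median ratio over each gene's probe sets. The code was tested on made-up ratios. Python 3.11.15, numpy 2.4.6, pandas 2.3.3, statsmodels 0.14.6 and matplotlib 3.10.9 were used.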

Additional observations from a re-analysis of the deposited data

How the results depend on the processing

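After quantile normalization the log2 ratio of Ins2 was -0.026, against 0.36 as deposited, and those of the Iapp probe sets 1437323_a_at, 1423509_a_at and 1423510_at were 0.36, 0.37 and 0.42, against 0.65 for each. Centred on the islet endocrine genes, Ins2 was at 0.061 and the 4 Iapp probe sets at 0.35, 0.35, 0.35 and 0.27, which follows from the median of those genes, 0.30. Under median centring, loess correction, centring on proximal tubule markers and addition of the array median, the 5 probe sets moved by less than 1 SD of the technical scatter. At the 1.5-fold limit, 15 of the 31 islet genes were past it, against 7 at 2-fold, and the other alternatives gave 5 to 8. The following comparisons were added after seeing the data. The median log2 ratio of the other islet hormones exceeded that of Ins2 by 1.07 as deposited and 1.48 after quantile normalization, and that of Iapp by 0.78 and 1.10. Iapp exceeded Ins2 by 0.29 to 0.38. The cause of the changes under quantile normalization was not tested. No paired analysis was possible because each condition had 1 array, and for the same reason no sample could be left out. No detection calls were used, so low signals carry a larger and unknown error.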
